A study of Homo sapiens with 16 samples.

Results

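The renal tubule genes PAX2, PAX8, HNF4A, LRP2, CUBN, HPD, CES2 and CA2 were followed in A498, an established human line of clear cell renal cell carcinoma (ccRCC). The genes are a named list of kidney lineage factors and tubule function genes, drawn up with earlier results of these data known. A gene was measured by its probe set, the group of array probes that reads 1 gene, and only probe sets with exactly 1 gene symbol were used. Of the 8 genes, 7 had such a probe set, among 22411 genes in all, and each of the 7 had only 1, so no choice between probe sets was needed. The probe table used here listed no probe set for HNF4A, which therefore has no value. The genes were chosen by name, and the split above and below the median gene level was selected on the measured levels over all arrays, so levels are described without a test. Differences between groups played no part in the stated rule, but earlier results of these comparisons were known when the list was made.

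All cells carried doxycycline-inducible short hairpin RNAs (shRNAs) against DGAT1 and DGAT2, the enzymes that complete triglyceride synthesis. Replicate plates had vehicle or doxycycline over 5 days, then 2 days under normoxia or under hypoxia at 0.5% O2, after which RNA was extracted. Sources differ on low serum, which the deposited design starts together with the drug and the study's own description ties to the oxygen step. The groups were vehicle in normoxia, vehicle in hypoxia, doxycycline in normoxia and doxycycline in hypoxia, with 4 arrays each. The labels call vehicle cells wildtype, although they carry the non-induced construct, and call doxycycline cells DGAT1/2 knockdown. Both hairpins came from lentiviral vectors under a Tet-inducible promoter, and infected cells were selected with antibiotics. No arrays of doxycycline-treated cells without hairpins were analysed here, so an effect of doxycycline itself and one of the hairpins cannot be told apart. The arrays are labelled biological replicates without further detail on how cultures were kept apart, so p-values measure the spread between these plates. A level below is the deposited log2 value, a difference of 1 is a factor of 2 on that scale, and errors of differences are standard errors from limma.

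PAX2 and PAX8 are paired-box transcription factors that start and maintain the nephric lineage, and both stain renal tumors in diagnostic pathology. HNF4A is a nuclear receptor that drives the mature proximal tubule program. LRP2 (megalin) and CUBN (cubilin) are the large endocytic receptors with which proximal tubule cells recover filtered proteins. HPD, 4-hydroxyphenylpyruvate dioxygenase, is an oxygen-using enzyme of tyrosine catabolism in liver and kidney. CES2 is a carboxylesterase of the endoplasmic reticulum that hydrolyzes esters, including prodrugs. CA2 is the cytosolic carbonic anhydrase that serves bicarbonate recovery and acid secretion along the nephron. A498 cells lack functional VHL, the ubiquitin ligase component that marks hypoxia-inducible factors (HIFs) for destruction.

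Among the genes measured here, HPD and CES2 were lower in hypoxia with and without doxycycline, and the bases before their starts are shown because HIFs bind the short sequences ACGTG and GCGTG. RefSeq (GRCh38.p14) lists 2 start sites for each gene, and the 250 bases before the upstream one are given 5′ to 3′ on the gene's strand, with matches on either strand in capitals. The HPD window is chr12:121888612-121888861 on the minus strand, and the CES2 window is chr16:66934221-66934470 on the plus strand.
HPD: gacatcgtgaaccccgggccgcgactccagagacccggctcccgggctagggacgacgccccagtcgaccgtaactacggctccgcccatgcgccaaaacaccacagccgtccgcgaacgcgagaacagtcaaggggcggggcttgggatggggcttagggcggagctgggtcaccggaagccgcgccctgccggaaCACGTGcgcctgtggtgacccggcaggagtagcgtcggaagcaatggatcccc
CES2: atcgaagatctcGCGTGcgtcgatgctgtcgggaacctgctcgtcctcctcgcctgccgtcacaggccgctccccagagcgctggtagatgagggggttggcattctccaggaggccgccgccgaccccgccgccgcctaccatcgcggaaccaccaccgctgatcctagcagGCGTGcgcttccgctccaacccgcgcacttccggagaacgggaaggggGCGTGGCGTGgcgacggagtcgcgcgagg
The HPD window held ACGTG once on each strand, and the copies overlap as CACGTG, with its first base at -53 from the start. The CES2 window held GCGTG 4 times on the plus strand, with first bases at -238, -77, -29 and -24 from the start. The windows before the second starts of HPD and CES2 held neither sequence. Among the other genes, LRP2, not called in any comparison, held GCGTG 5 times, PAX2, not called either, held each sequence once before its first start, and PAX8 and CUBN held neither. Of 35116 RefSeq windows of this length, 18.5% held ACGTG, 32.2% held GCGTG and 43.2% held at least 1 of them. Which start these cells use was not tested, and a match describes letters only.

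The arrays as a whole carried the marks of a renal carcinoma line. DGAT1 and DGAT2 were lower on all doxycycline arrays than on all vehicle arrays, with DGAT1 at 5.04 to 5.28 against 6.24 to 6.99 and DGAT2 at 5.06 to 5.44 against 6.26 to 7.18. Of 13 ccRCC and tubular epithelium markers 11 were measured and 9 lay above the median gene level, such as HAVCR1, the tubular injury marker KIM-1 (14.78), KRT8 (14.59) and VIM (15.20). The kidney cadherin CDH16 (4.16) and the brush border peptidase gene MME (3.86) did not, and CA9 and NDUFA4L2 have no value here. None of the 4 leukocyte, 5 endothelial or 4 fibroblast and pericyte markers measured lay above it, and 1 of 3 podocyte markers did (PLA2R1, 4.97). A single axis of deviations from group means carried 63.3% of the within-group variance, with vehicle hypoxia replicate 4 (45.8) and doxycycline hypoxia replicate 4 (-31.5) at its ends and the other arrays between -26.1 and 22.9. On scores that keep the group means, vehicle hypoxia replicate 4 (57.7) and vehicle normoxia replicate 1 (-38.4) lay at the ends. Fits were repeated without each pair. The median difference over all genes lay between -0.05 and 0.00 in the 4 comparisons of a single factor.

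Of the 7 measured genes, 5 were above the median gene level of 4.89, namely PAX8, CES2, CA2, HPD and PAX2. LRP2 and CUBN were below it. The level of a gene here is the mean of its 4 group means. The level of PAX8 was 11.33, above 94.7% of genes, and that of CES2 was 10.85, above 93.1%. A lineage factor and an esterase were thus among the genes with bright probe sets. The level of CA2 was 7.86 (above 76.9% of genes), that of HPD was 6.14 (62.1%) and that of PAX2 was 5.96 (60.4%). Just above the threshold stood PAX2, 1.07 over the median, and just below it stood CUBN, 0.81 under it. Each of the 16 arrays gave the same side, with PAX2 at 5.71 or more and CUBN at 4.23 or less. Levels of different probe sets also reflect how well their probes bind, so no order of expression among the genes is drawn.

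Olfactory receptor genes, a family used mainly in the nose, gave a second reference. Their 394 probe sets had a median level of 3.22 and a 95th percentile of 4.23. The same 5 genes exceeded that percentile, as did 58.4% of all genes. LRP2, at 3.25, lay above 53.3% of olfactory receptor genes, and its level on single arrays ran from 3.15 to 3.36. CUBN, at 4.07, lay above 92.6% of them, with arrays from 3.93 to 4.23. Signal from both endocytic receptor genes thus lay below the 95th percentile of a family with little or no expected expression. Changes in either gene are changes of a dim signal. The count of 5 above the median was the same in each of the 4 groups taken alone.

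**Figure D1:**
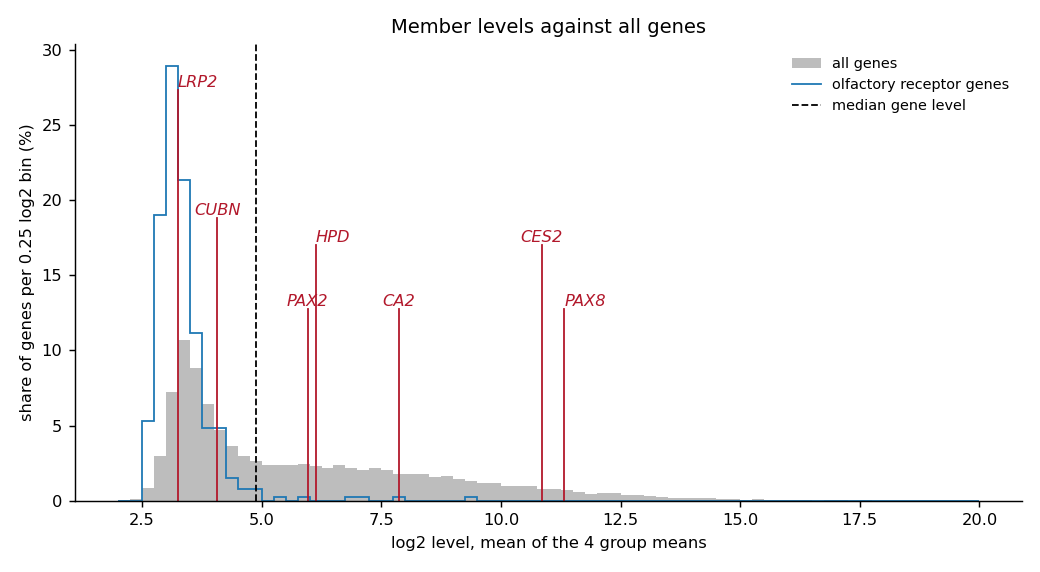
Share of genes (%) in each 0.25-wide bin of log2 level (mean of the 4 group means) for all 22411 genes (grey) and 394 olfactory receptor genes (blue line), with the 7 measured renal tubule genes as red lines whose heights carry no value. LRP2 (3.25) and CUBN (4.07) lie left of the dashed median gene level (4.89), and PAX2, HPD, CA2, CES2 and PAX8 lie right of it.

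Among the lineage factors, PAX8 was bright in all groups and most variable in vehicle hypoxia. In order of replicates 1 to 4 its level was 11.00, 11.03, 11.16 and 11.19 for vehicle normoxia and 11.79, 11.27, 12.13 and 11.26 for vehicle hypoxia. With doxycycline it was 11.06, 11.17, 11.35 and 11.19 in normoxia and 11.35, 11.38, 11.41 and 11.51 in hypoxia. All vehicle hypoxia arrays lay above all vehicle normoxia arrays, and replicates 1 and 3 of vehicle hypoxia stood above the other 2. The difference of hypoxia from normoxia with vehicle was 0.52 ± 0.15 (adjusted p = 0.0554, exact permutation p = 0.0286), just short of the threshold. Without vehicle hypoxia replicate 2 it was 0.63 (adjusted p = 0.0204) and without replicate 4 it was 0.63 (adjusted p = 0.0253, limma). With all arrays kept it also passed with array weights (adjusted p = 0.00191), with only genes above the median level (0.033) and with no intensity trend (0.0497, limma). With 1 array left out at a time it ran from 0.34 to 0.63 (limma, adjusted p from 0.0204 to 0.139), and 2 of 16 such fits called it. Of all 28 alternatives 6 called it. With doxycycline the difference was 0.22 ± 0.15 (limma, adjusted p = 0.573), and the groups touched. Doxycycline gave 0.10 ± 0.15 in normoxia (limma, adjusted p = 0.735) and -0.20 ± 0.15 in hypoxia (adjusted p = 0.575), with 95% confidence intervals from -0.23 to 0.42 and from -0.53 to 0.13. In the order of the 4 group means (vehicle hypoxia, doxycycline hypoxia, doxycycline normoxia, vehicle normoxia), each neighboring pair overlapped.

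PAX2 stood closer to the median and moved less. Its level was 6.11, 5.71, 5.90 and 5.88 for vehicle normoxia and 5.83, 5.92, 6.01 and 5.80 for vehicle hypoxia. With doxycycline it was 6.08, 6.22, 6.16 and 6.06 in normoxia and 5.83, 5.90, 5.91 and 5.99 in hypoxia. Doxycycline in normoxia was the highest group, and its arrays overlapped those of vehicle normoxia only through vehicle replicate 1. Doxycycline in normoxia gave 0.23 ± 0.08 (limma, adjusted p = 0.074), and 0.30 without vehicle normoxia replicate 1 (adjusted p = 0.018). Without vehicle normoxia replicate 2 it was 0.17 (adjusted p = 0.182, limma), and 1 of 16 fits with 1 array left out called it. Hypoxia with doxycycline gave -0.22 ± 0.08 (adjusted p = 0.14, exact permutation p = 0.0286), with no overlap between the groups. The other 2 differences were 0.02 ± 0.08 (doxycycline in hypoxia, 95% confidence interval -0.15 to 0.18) and -0.01 ± 0.08 (hypoxia with vehicle, -0.17 to 0.15). For doxycycline in normoxia 3 of 28 alternatives called PAX2, among them array weights (adjusted p = 0.00538, limma). For hypoxia with doxycycline 2 of 28 did, array weights (adjusted p = 0.0207) and the fit without the ends of the axis scores (0.0433, limma). Neither paired-box gene passed the main fit in any of the 4 comparisons.

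The wider list of nephric lineage factors held 26 genes, of which 21 were measured and 10 were above the median gene level. The highest levels were those of SALL1, a zinc-finger regulator of kidney development (8.48), MAF (7.87), HNF4G, the paralog of HNF4A (7.19), and IRX3 (6.88). With doxycycline 2 factors rose and 1 fell in normoxia and 1 rose and 1 fell in hypoxia, of 21 measured, where 9.08% and 4.66% of all genes were called. GATA3 rose at both oxygen levels (0.19 ± 0.05 and 0.25 ± 0.05, adjusted p = 0.042 and 0.0137, limma), and POU3F3, a factor of the loop of Henle, fell in hypoxia (-0.42 ± 0.11, 0.0457). With hypoxia 2 factors rose and none fell with vehicle, among them MAF (0.38 ± 0.09, adjusted p = 0.0173, limma), and 1 fell with doxycycline, LHX1, which acts early in the nephric duct (-0.53 ± 0.12, 0.0218). Hypoxia called 6.91% of all genes with vehicle and 3.98% with doxycycline. The list median lay between -0.03 and 0.04 in these comparisons. HNF4G was at 0.80 ± 0.28 in hypoxia with vehicle (limma, adjusted p = 0.103).

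Among the endocytic receptors, CUBN rose slightly with doxycycline from its dim level. It read 4.00, 3.98, 3.94 and 3.98 for vehicle normoxia and 3.99, 3.93, 3.99 and 3.95 for vehicle hypoxia. With doxycycline it read 4.23, 4.22, 4.23 and 4.15 in normoxia and 4.10, 4.12, 4.16 and 4.19 in hypoxia. All 8 doxycycline arrays lay above all 8 vehicle arrays, by little. The difference was 0.23 ± 0.03 in normoxia (adjusted p = 0.00073, limma) and 0.18 ± 0.03 in hypoxia (adjusted p = 0.00639, limma), each with an exact permutation p of 0.0286, the smallest that 4 against 4 arrays allow. No fold is given, because the level lay below the olfactory receptor 95th percentile of 4.23. The hypoxia call was lost when only the 8 arrays compared entered the fit (adjusted p = 0.0783). Hypoxia gave -0.01 ± 0.03 with vehicle and -0.06 ± 0.03 with doxycycline, neither of which passed (adjusted p = 0.836 and 0.438, limma).

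LRP2 gave no sign of movement within its dim range. Vehicle arrays read 3.36, 3.21, 3.22 and 3.30 under normoxia and 3.20, 3.25, 3.31 and 3.15 under hypoxia. Doxycycline arrays read 3.26, 3.27, 3.18 and 3.27 under normoxia and 3.18, 3.24, 3.25 and 3.34 under hypoxia. All groups overlapped. The 4 differences lay between -0.05 and 0.03, each with an SE of 0.05 and adjusted p from 0.542 to 0.975 (limma). LRP2 followed the first axis of within-group deviations most closely of the 7 genes (Pearson r = -0.86 over 16 arrays, given as a description without a test), against -0.69 for PAX2 and -0.20 for CA2.

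Of 12 other genes of proximal tubule endocytosis 9 were measured and 8 were above the median gene level. RAB11A (12.19), a GTPase of recycling endosomes, the clathrin light chain gene CLTA (10.55), SNX5 (10.54) and DAB2 (10.08), the adaptor that binds the megalin tail, were the highest. CLCN5 (4.63) lay below the median gene level. Thus 8 of the 9 genes lay above that level, where LRP2 and CUBN did not. Levels of different probe sets also reflect probe binding, so no order of expression is drawn. With doxycycline in normoxia 2 of the 9 rose and none fell, namely OCRL, the phosphatase mutated in Lowe syndrome (0.40 ± 0.09, adjusted p = 0.0112, limma), and ANKRA2, which binds megalin (0.53 ± 0.13, 0.0223). Doxycycline called 9.08% of all genes in normoxia and 4.66% in hypoxia. OCRL also rose in hypoxia (0.37 ± 0.09, adjusted p = 0.0256, limma). Hypoxia changed none of the 9 past the threshold, and ANKRA2 was at -0.45 ± 0.13 with doxycycline (adjusted p = 0.0833, limma).

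Among the enzymes, HPD was higher with doxycycline and lower in hypoxia. Its level was 6.24, 5.95, 6.30 and 6.28 for vehicle normoxia and 5.23, 5.69, 5.26 and 5.34 for vehicle hypoxia. With doxycycline it was 7.08, 7.30, 6.92 and 7.13 in normoxia and 5.51, 5.92, 5.90 and 6.12 in hypoxia. Doxycycline normoxia stood above the 3 other groups, and each hypoxic group lay below its normoxic partner without overlap. Hypoxia lowered HPD 1.76-fold with vehicle (-0.81 ± 0.13, adjusted p = 0.00284, limma) and 2.37-fold with doxycycline (-1.24 ± 0.13, adjusted p = 0.000223, limma). Doxycycline raised it 1.89-fold in normoxia (0.92 ± 0.13, adjusted p = 0.000599, limma). In hypoxia the difference was 0.48 ± 0.13 (95% confidence interval 0.20 to 0.77, adjusted p = 0.0534, limma), and the groups overlapped through vehicle replicate 2 and doxycycline replicate 1. Without the former array it was 0.59 (adjusted p = 0.0241), without the latter 0.60 (0.015), and without vehicle normoxia replicate 2, which only the spread draws on, adjusted p was 0.0472 (limma). Only these 3 of the 16 fits with 1 array left out called the difference. Over all 16 it ran from 0.40 to 0.60, with adjusted p from 0.015 to 0.163 (limma). In the order of the group means, the neighbors vehicle normoxia and doxycycline hypoxia, and doxycycline hypoxia and vehicle hypoxia, overlapped.

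**Figure D2:**
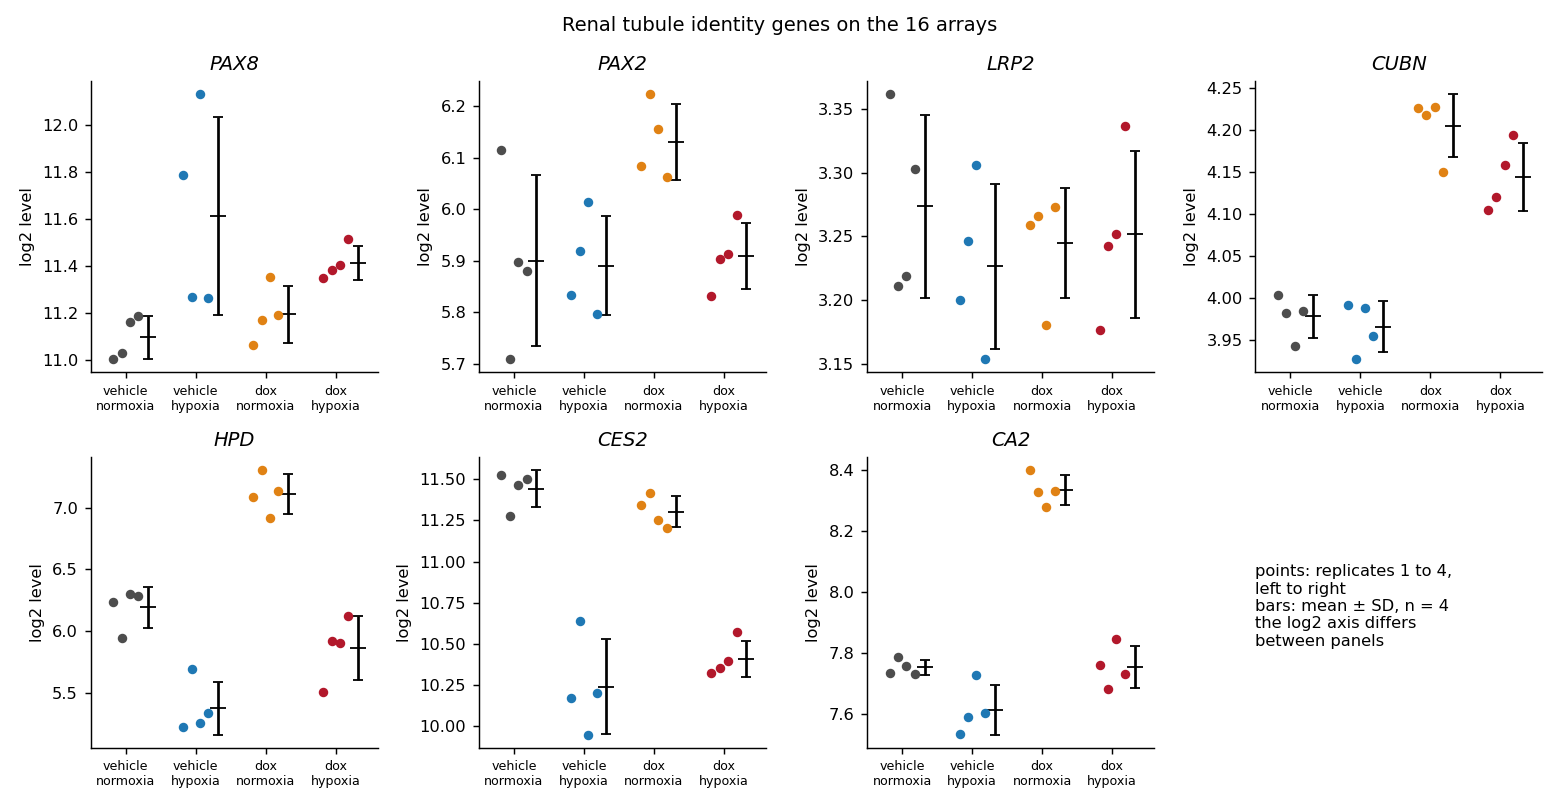
Log2 level of each measured renal tubule gene on the 16 arrays by group, with replicates 1 to 4 as points from left to right and the mean ± SD (n = 4) beside them; the vertical scale differs between panels and does not start at 0. HPD and CA2 peak in doxycycline normoxia (means 7.11 and 8.33), CES2 is lower in both hypoxic groups (10.24 and 10.41 against 11.44 and 11.30), and CUBN separates by doxycycline.

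HPD acts between the aminotransferases and homogentisate oxidase in tyrosine breakdown. Some, but not all, of the genes listed with that route were lower in hypoxia as well. Of 9 listed genes 8 were measured and 7 were above the median gene level, led by GOT2 (12.48), HGD (11.45), PCBD1 (10.98) and GOT1 (10.52), while TAT, the liver-type tyrosine aminotransferase, was at 3.24. Of the 8, 4 fell in hypoxia with vehicle and 4 with doxycycline, and none rose, where 4.65% and 2.97% of all genes were called lower, with list medians of -0.39 and -0.41 against -0.05 and -0.01 over all genes. FAH, the last enzyme of the route, fell by 0.90 ± 0.10 with vehicle (adjusted p = 0.00038, limma) and by 0.62 ± 0.10 with doxycycline (0.0043). GSTZ1, the maleylacetoacetate isomerase, fell by 0.47 ± 0.09 (adjusted p = 0.00796, limma) and by 0.49 ± 0.09 (0.00799). PCBD1, which helps recycle the pterin cofactor of phenylalanine hydroxylase, fell by 0.52 ± 0.09 (adjusted p = 0.00407, limma) and by 0.43 ± 0.09 (0.0152). GOT1 passed only with vehicle (-0.63 ± 0.14, adjusted p = 0.017, limma, against -0.29 ± 0.14, 0.346, with doxycycline) and QDPR only with doxycycline (-0.41 ± 0.09, 0.0135, against -0.26 ± 0.09, 0.0835), and neither contrast between treatments passed the interaction test (adjusted p = 0.956). HGD, homogentisate dioxygenase, was not called in hypoxia, at -0.14 ± 0.15 with vehicle and -0.40 ± 0.15 with doxycycline (adjusted p = 0.589 and 0.194, limma). GOT2 and TAT were not called in hypoxia either. With doxycycline in normoxia HGD rose (0.52 ± 0.15, adjusted p = 0.0444, limma) and GOT1 fell (-0.49 ± 0.14, 0.0433). With doxycycline in hypoxia none of the 8 passed. This list was also chosen with earlier results of these data known, so its counts and medians are descriptions.

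**Figure D3:**
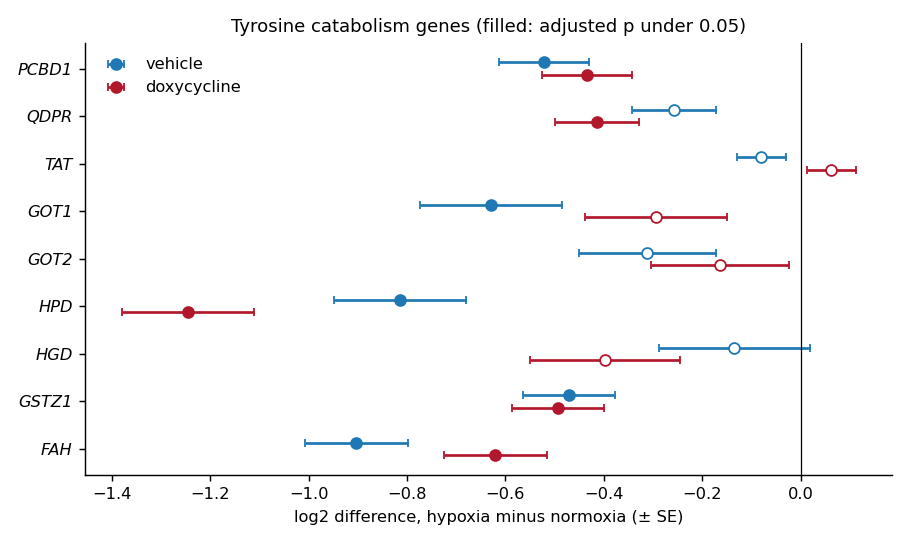
Log2 difference of hypoxia minus normoxia (± SE from limma, n = 4 arrays per group) for HPD and the 8 other measured genes of tyrosine catabolism, with vehicle in blue and doxycycline in red, filled where adjusted p is under 0.05. HPD (-0.81 and -1.24) and FAH (-0.90 and -0.62) lie farthest to the left in their treatments, and TAT lies near 0.

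CES2 was lower in hypoxia and was not called with doxycycline. Its level was 11.53, 11.28, 11.46 and 11.50 for vehicle normoxia and 10.17, 10.64, 9.95 and 10.20 for vehicle hypoxia. With doxycycline it was 11.34, 11.41, 11.26 and 11.20 in normoxia and 10.32, 10.35, 10.39 and 10.57 in hypoxia. All 8 hypoxic arrays lay below all 8 normoxic arrays. Hypoxia lowered CES2 2.31-fold with vehicle (-1.21 ± 0.12, adjusted p = 0.000102, limma) and 1.86-fold with doxycycline (-0.90 ± 0.12, adjusted p = 0.00101, limma). With vehicle, only 0.0446% of all genes had a smaller p. Doxycycline gave -0.14 ± 0.12 in normoxia (95% confidence interval -0.40 to 0.12) and 0.17 ± 0.12 in hypoxia (-0.09 to 0.42), with adjusted p = 0.505 and 0.538 (limma).

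Other carboxylesterases and proximal tubule enzymes were mostly dim. Of 31 listed genes 28 were measured and 6 lay above the median gene level, led by the brush border peptidase genes DPP4 (14.20) and ANPEP (13.88), the scaffold gene PDZK1 (8.71) and the aminoacylase gene ACY1 (6.90). CES1, the liver-type carboxylesterase, was at 4.01. Hypoxia raised 1 and lowered 1 of the 28 with vehicle, and raised none and lowered 2 with doxycycline. Over all genes, 6.91% and 3.98% were called in these comparisons. ACY1 fell under both treatments, by 0.66 ± 0.09 (adjusted p = 0.00102, limma) and by 0.58 ± 0.09 (0.00244). DPP4 rose with doxycycline in normoxia (1.49 ± 0.15, adjusted p = 2.96e-05, limma) and in hypoxia (1.07 ± 0.15, 0.000662), while PDZK1 fell by 0.78 ± 0.15 (0.00541) and by 0.85 ± 0.15 (0.0042). DDC, the aromatic amino acid decarboxylase of dopamine synthesis in proximal tubules, rose with doxycycline in normoxia (0.26 ± 0.06, adjusted p = 0.0111, limma) and fell in hypoxia with doxycycline (-0.27 ± 0.06, 0.0181), which is the pattern of signs of HPD and CA2. The counts with doxycycline were 2 higher and 1 lower in normoxia and 1 higher and 1 lower in hypoxia, of 28 measured, beside 9.08% and 4.66% of all genes.

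CA2 was highest in doxycycline normoxia and differed little among the other groups. Its level was 7.73, 7.78, 7.76 and 7.73 for vehicle normoxia and 7.53, 7.59, 7.73 and 7.60 for vehicle hypoxia. With doxycycline it was 8.40, 8.33, 8.28 and 8.33 in normoxia and 7.76, 7.68, 7.84 and 7.73 in hypoxia. Doxycycline normoxia lay above all other arrays. Doxycycline raised CA2 1.5-fold in normoxia (0.58 ± 0.06, adjusted p = 3.13e-05, limma), and hypoxia lowered it 1.5-fold with doxycycline (-0.58 ± 0.06, adjusted p = 0.000193, limma), so that doxycycline hypoxia (7.75 ± 0.07, SD, n = 4) matched vehicle normoxia (7.75 ± 0.03). Doxycycline in hypoxia gave 0.14 ± 0.06 (adjusted p = 0.235, limma) and hypoxia with vehicle gave -0.14 ± 0.06 (0.168), the latter without overlap between the arrays. The interaction, the difference between the effects of doxycycline in hypoxia and in normoxia, was -0.44 ± 0.08 (95% confidence interval -0.62 to -0.26). By its unadjusted p of 0.000105 CA2 ranked 3 among all genes, but after adjustment over all of them adjusted p was 0.785 (limma).

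Of 14 other carbonic anhydrase genes 13 were measured and 4 were above the median gene level. CA12, a membrane-bound form that is a HIF target in renal carcinoma, was at 15.71, CA13 at 6.56, CA11 at 5.68 and CA5B at 5.50. CA12 rose with doxycycline in hypoxia (0.37 ± 0.06, adjusted p = 0.00175, limma) and was at 0.17 ± 0.06 in normoxia (0.0978). CA13, a cytosolic form like CA2, rose in all 4 comparisons, by 0.27 ± 0.06 and 0.23 ± 0.06 with doxycycline in normoxia and hypoxia, and by 0.32 ± 0.06 and 0.28 ± 0.06 with hypoxia on vehicle and on doxycycline (adjusted p from 0.00546 to 0.0445, limma). CA2 and CA13 thus moved in opposite directions in hypoxia with doxycycline.

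Across the list, doxycycline in normoxia raised 3 of 7 genes (HPD, CA2 and the dim CUBN) and lowered none. Of all genes 9.08% were called in this comparison, 4.43% higher and 4.65% lower. The members' median difference was 0.23, against -0.02 over all genes. Because the list was made with earlier results of these comparisons known, such contrasts with all genes are descriptions and no test of the list. By unadjusted p under 0.05, 4 were higher and none lower (limma), where 24.9% of all genes passed in either direction, and the methods' t-test after adjustment called 3. Doxycycline in hypoxia raised 1 (the dim CUBN) and lowered none, where 4.66% of genes were called, 2.67% higher and 1.99% lower, and 3 were higher and none lower by unadjusted p, which 17.2% of all genes passed. Its median was 0.14, against 0.00 over all genes. Arrays did not overlap for 3 members in normoxia and 1 in hypoxia, against 19.9% and 9.01% of all genes.

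Endothelial and podocyte markers are given beside the doxycycline results because some also moved with it. TEK, an endothelial receptor gene below the median gene level (4.44), rose at both oxygen levels (0.18 ± 0.05 and 0.31 ± 0.05, adjusted p = 0.0308 and 0.00159, limma), 1 of 5 endothelial markers, while PECAM1 was at 3.04 and CDH5 at 3.86. The summed level of the 5 ran from 18.2 to 18.6 in vehicle normoxia and 18.3 to 18.8 in doxycycline normoxia, and from 17.8 to 18.4 and 18.2 to 18.6 in hypoxia. The summed level of 3 podocyte markers, none of them called, ran from 12.47 to 12.53 with vehicle and 12.74 to 12.90 with doxycycline in normoxia, and from 12.64 to 13.04 and 13.14 to 13.33 in hypoxia. Their part in the results was not tested. Among the epithelial markers, calls ran both ways with doxycycline in normoxia, with CDH6 (1.20 ± 0.20) and HAVCR1 (0.40 ± 0.09) higher and KRT18 (-0.68 ± 0.10) and KRT8 (-0.50 ± 0.13) lower, so 2 of 11 rose and 2 fell (adjusted p from 0.000555 to 0.0297, limma). Over all genes, doxycycline called 9.08% in normoxia and 4.66% in hypoxia.

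Hypoxia lowered 2 of 7 genes with vehicle (CES2, HPD) and 3 with doxycycline (HPD, CES2, CA2), and raised none. Of all genes 6.91% were called with vehicle, 2.26% higher and 4.65% lower, and 3.98% with doxycycline, 1.02% higher and 2.97% lower. The members' medians were -0.05 and -0.22, against -0.05 and -0.01 over all genes. Here too the list was made with earlier results known, so contrasts with all genes are descriptions only. By unadjusted p 1 was higher and 3 lower with vehicle, and none higher and 4 lower with doxycycline (limma), where 24.9% and 15.6% of all genes passed in either direction. Arrays did not overlap for 4 members in each, against 13.8% and 12.9% of all genes. With vehicle both calls were lost by the methods' t-test after adjustment (adjusted p = 0.074 for CES2 and 0.0911 for HPD), which uses each gene's own spread on 8 arrays, while with doxycycline that test called 3. The calls for hypoxia on vehicle and for doxycycline in normoxia share the vehicle normoxia arrays, and those for doxycycline in normoxia and hypoxia on doxycycline share the doxycycline normoxia arrays, so opposite signs in such a pair are not independent.

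Marker genes also moved with oxygen. HAVCR1 was higher in hypoxia with vehicle (0.53 ± 0.09) and with doxycycline (0.37 ± 0.09), KRT18 was lower with vehicle (-0.49 ± 0.10) and CDH6 was lower with doxycycline (-1.28 ± 0.20), so 1 of 11 epithelial markers rose and 1 fell under each treatment (adjusted p from 0.00244 to 0.0341, limma). Over all genes, 6.91% were called with vehicle and 3.98% with doxycycline. The podocyte sums given above were higher in hypoxia without overlap under each treatment, with none of the 3 markers called. Their part in the hypoxia results was not tested.

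**Figure D4:**
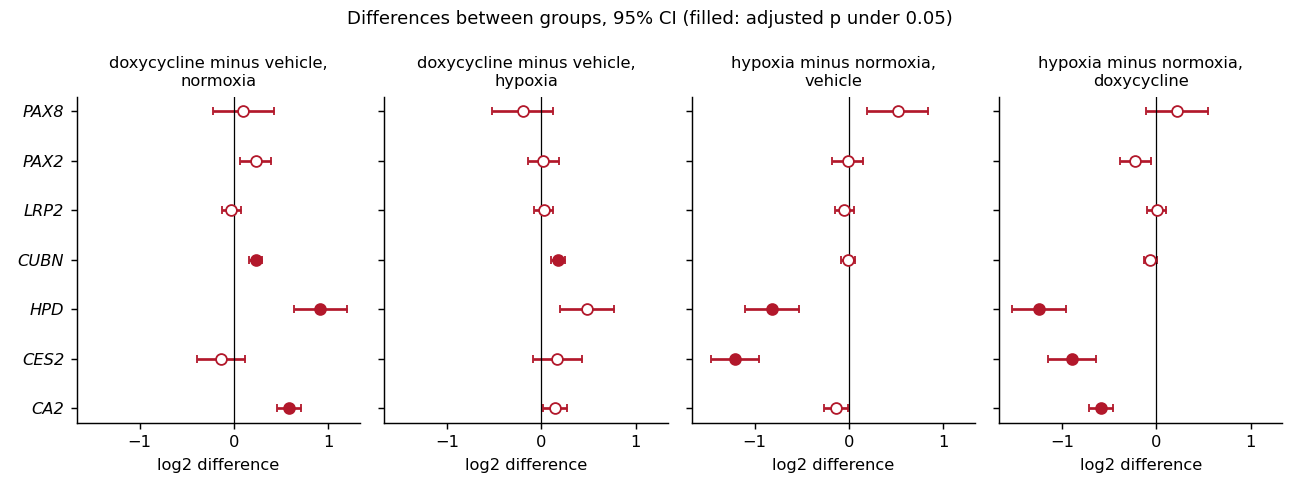
Log2 differences with 95% confidence intervals from limma for the 7 measured genes in the 4 comparisons, filled where adjusted p is under 0.05. With doxycycline in normoxia HPD (0.92) and CA2 (0.58) lie to the right of 0, and in hypoxia CES2 (-1.21 and -0.90) and HPD (-0.81 and -1.24) lie to the left under both treatments.

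The interaction asks whether doxycycline acted differently in hypoxia than in normoxia, and it called none of the 7 genes and 0% of all genes (limma). By unadjusted p under 0.05, 1026 genes (4.58% of those tested) and 2 members passed, CA2 and HPD. HPD was at -0.43 ± 0.19 (95% confidence interval -0.84 to -0.03), CES2 at 0.31 ± 0.17, PAX8 at -0.30 ± 0.22 and PAX2 at -0.21 ± 0.11, each with adjusted p = 0.956 (limma). CDH6, at -1.04, had the same adjusted p of 0.956. That CA2 and HPD were called with doxycycline in normoxia and not in hypoxia is therefore not shown to be a difference between oxygen levels.

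Solute transporters of the proximal tubule were largely dim, with exceptions. Of 31 listed genes 29 were measured and 6 were above the median gene level, led by SLC4A4, the basolateral bicarbonate cotransporter gene (10.34), SLC7A7 (6.30), SLC7A8 (5.79) and the carnitine transporter gene SLC16A9 (5.63). With doxycycline 6 rose and 2 fell in normoxia, and 4 rose and none fell in hypoxia, where 9.08% and 4.66% of all genes were called. Of those called, SLC3A1 (4.18), SLC17A1 (4.02), SLC22A6 (3.68) and SLC28A1 (3.45) had levels below the olfactory receptor 95th percentile of 4.23. SLC4A4, which works with carbonic anhydrases in bicarbonate recovery, rose in normoxia (1.34 ± 0.21, adjusted p = 0.000924, limma) and was at 0.68 ± 0.21 in hypoxia (0.0798). SLC17A3, a urate and organic anion transporter gene, rose by 0.48 ± 0.07 and 0.47 ± 0.07 (adjusted p = 0.000707 and 0.00109, limma), and SLC7A7 by 0.61 ± 0.14 and 0.52 ± 0.14 (0.0125 and 0.0441). With hypoxia SLC4A4 rose with vehicle (1.03 ± 0.21, adjusted p = 0.00876, limma), while SLC7A8 fell by 0.43 ± 0.09 and 0.52 ± 0.09 (0.011 and 0.00478) and SLC16A9 by 0.38 ± 0.08 and 0.40 ± 0.08 (0.0132 and 0.0126). In all, 1 rose and 3 fell with vehicle and none rose and 2 fell with doxycycline. Over all genes, hypoxia called 6.91% and 3.98%. The list median lay between -0.07 and 0.02 in the 4 comparisons.

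Markers of the distal nephron were nearly all below the median gene level, with 3 of 22 measured above it (CLDN16 at 5.67, SCNN1A at 5.55 and CLDN10 at 5.16). CLDN16, a tight junction gene of the thick ascending limb, rose in hypoxia (0.43 ± 0.10 with vehicle and 0.52 ± 0.10 with doxycycline, adjusted p = 0.0169 and 0.00799, limma) and with doxycycline in hypoxia (0.39 ± 0.10, 0.0345). CLDN10 fell in hypoxia (-0.31 ± 0.08 and -0.32 ± 0.08, adjusted p = 0.0382 and 0.0423, limma), as did SLC12A3, the thiazide-sensitive cotransporter gene (-0.23 ± 0.04 and -0.26 ± 0.04, 0.00341 and 0.00214). These were all the distal nephron genes called, 1 higher and 2 lower of 22 in hypoxia under each treatment, where 6.91% of all genes were called with vehicle and 3.98% with doxycycline.

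Over the 16 arrays, the genes whose levels ran most like those of the 5 brighter genes were sought among the 11204 other genes above the median level. These correlations include the differences between groups, are the highest of many, and are given as descriptions. For CES2 they were PAN2 (Pearson r = 0.98, Spearman rho = 0.98), WBP1 (0.98, 0.96) and SIDT2 (0.98, 0.95). For HPD they were TP53I3 (0.97, 0.94), NECAB2 (0.97, 0.97) and EIF4E2 (0.96, 0.96), with r of 0.55, 0.79 and 0.86 within groups. For CA2 they were TLR5 (0.94, 0.78), HPS5 (0.93, 0.84) and CASP4 (0.93, 0.86), and within groups these fell to r = 0.08, 0.19 and 0.34, so the likeness lay in the group means. For PAX8 they were FBXL14 (0.94, 0.81), FBXO32 (0.93, 0.93) and ATP1B3 (0.92, 0.84), with r of 0.93, 0.94 and 0.90 within groups. That likeness lay also among replicates, but mainly those of vehicle hypoxia. PAX8 had an SD of 0.42 there, against 0.07 to 0.12 in the other groups. For PAX2 they were TAX1BP3 (0.87, 0.87), TOM1L2 (0.87, 0.86) and DDC (0.87, 0.90), the last being one of the proximal tubule enzymes above.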

How the data were processed

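RNA (250 ng of total RNA per array) was labelled with biotin by the study and hybridised to expression arrays. The deposited values are log2 expression levels. The submitters' processing notes name RMA and Transcriptome Analysis Console, with no versions. For the build, the sources used here give nothing. The values ran from 1.71 to 19.85, and 590 probe sets exceeded 16, the log2 limit of a 16-bit scanner, on all arrays, so the scale was not settled and each fold is one of these values only. Of 70523 probe sets 23781 had 1 gene symbol in the platform annotation, 1543 had several and 45199 had none. Symbols were updated through RefSeq genes (GRCh38.p14), where 21497 matched by identifier, 2280 by symbol or synonym and 4 were kept. The brightest probe set per gene left 22411 genes.

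Limma 3.58.1 (R 4.3.3) was fitted to all 16 arrays with 4 group means and an intensity trend, two-sided, with Benjamini-Hochberg adjustment over all 22411 genes and a threshold of 0.05. The fit was tested on simulated data with independent noise for each gene and array. Those data lack the axis of deviations that the real arrays share, so that test does not cover it. Exact two-sided permutation tests used the 70 arrangements of 4 against 4 arrays. The methods' t-test, which the study names beside ANOVA with no model for single genes, was an alternative. Genes named beyond the 8 came from tubule gene lists, by smallest adjusted p per direction among genes above the median level or by highest level, and a few were chosen after their values were seen, such as TAT, CES1, QDPR and single cell type markers. Alternatives were a replicate block, each array left out, filters, scalings, weights and other tests. Another 2, each without a pair of arrays, were added after seeing the data. The members and lists were chosen with earlier results of these data known.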

Additional observations from a re-analysis of the deposited data

Results flagged for a closer look

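Of the 28 sets of 4 arrays (7 genes in 4 groups), 2 held an array far from the others, where chance flags about 1 in 20 such sets. CUBN in doxycycline normoxia was lowest on replicate 4, at 4.15 against 4.22 to 4.23 on the other 3 arrays. LRP2 in doxycycline normoxia was lowest on replicate 3, at 3.18 against 3.26 to 3.27. Both genes lie below the median gene level.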

How the results depend on the processing

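Of 956 differences refitted for the 7 genes, 899 kept their direction and their side of the threshold, 12 lost a call, 18 gained one and 27 changed sign, all 27 of the last not called. Requiring a change of at least 1.5-fold left 0 genes called in each of the 4 comparisons. In hypoxia, doxycycline called 3 genes with array weights and 0 with only the arrays compared, and from 1 to 2 with 1 array left out (HPD being added without vehicle normoxia replicate 2, vehicle hypoxia replicate 2 or doxycycline hypoxia replicate 1). Hypoxia with vehicle called 4 with array weights (PAX8 and CA2 added) and 0 by the methods' t-test. Apart from the construction of the 1.5-fold test and the smaller number of arrays in single-comparison fits, the cause was not tested. Without the ends of the deviations the 4 counts were 3, 1, 3 and 3, and without the ends of the axis scores 4, 1, 2 and 4. In both doxycycline comparisons, array weights and each of these fits also called more of all genes than the main fit (2035 and 1045). Member calls that these settings added with doxycycline thus came with a general rise in calls. The count above the median level was 5 under each alternative but 1, the median over all probe sets (3.95), which gave 6.

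Sign changes were small. LRP2 with doxycycline in normoxia came to 0.0066 after quantile normalization, to 0.00042 without the ends of the axis scores and ran from -0.050 to 0.00042 with 1 array left out. With doxycycline in hypoxia PAX2 came to -0.039 and LRP2 to -0.027 without the ends of the deviations, PAX2 to -0.013 without the ends of the axis scores, and with 1 array left out PAX2 ran from -0.013 to 0.060 and LRP2 from -0.0028 to 0.052. For hypoxia with vehicle, centring gave 0.0096 for PAX2 and 0.0070 for CUBN, quantile normalization 0.019 for LRP2 and 0.045 for CUBN, and array weights 0.0046 for CUBN. Without the ends of the deviations PAX2 came to 0.022, and without the ends of the axis scores PAX2 came to 0.093 and LRP2 to 0.0063. With 1 array left out PAX2 ran from -0.073 to 0.061 and CUBN from -0.024 to 0.00032. For hypoxia with doxycycline LRP2 came to -0.014 with array weights and to -0.021 without the ends of the deviations, and ran from -0.021 to 0.032 with 1 array left out. The LRP2 interaction was -0.0018 after quantile normalization.

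In deviations from group means, same-numbered arrays correlated from -0.83 to 0.54, and 2 of 16 arrays correlated best with their own number. This check cannot tell whether a replicate number marks a shared batch, because a single axis carried 63.3% of the within-group variance. The labels do not say. With the replicate number as a block, 3, 1, 2, 3 and 0 of the 7 genes were called, as without it, while calls over all genes fell to 1453 from 2035, 718 from 1045, 853 from 1549 and 479 from 893. The number of arrays limits the precision, and LRP2 and CUBN lie below the 95th percentile of olfactory receptor genes.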
